A study of Mus musculus with 4 samples.

Results

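The Notch receptors Notch1 to Notch4, the ligands Dll4, Jag1 and Jag2, and the target genes Hey1, Heyl and Hes1 were followed through the stroma of the mouse submandibular gland, a salivary gland whose ducts had been clipped and released or left alone. The 10 genes were chosen by symbol, and all 10 were found once each among the 31053 genes measured. The material was 4 single-cell libraries of glands from female C57BL6/J mice, a strain without a transgene or other allele named in the labels. The 2 deligated libraries came from mice aged 14 weeks, whose main submandibular and sublingual ducts carried a metal clip for 14 days and were then free of it for 5 days. The 2 homeostatic libraries came from mice aged 12 weeks that had no surgery. Every library was made from a pair of glands, submandibular with sublingual, dissociated with enzymes at 37°C, depleted of EpCAM+ epithelial and Ter119+ red cells with beads and cleared of dead cells. Whether the replicates were separate animals is not said, so p-values measure the spread between libraries, which may be technical. Surgery, age and the version of the counting software changed together between the groups and cannot be told apart.

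Notch receptors sit in the membrane of one cell and are bound by Delta and Jagged ligands on a neighbouring cell. Binding exposes the receptor to cleavage by ADAM proteases and then by gamma-secretase, and the freed intracellular part enters the nucleus, joins the DNA-binding protein RBPJ and a Mastermind-like coactivator, and switches on repressors of the Hes and Hey families. In blood vessels the pathway is known for arterial identity, for limiting sprouting through Dll4 and Notch1, and for the maturation of smooth muscle and pericytes through Jag1 and Notch3.

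The promoters of Notch3 and Notch4 are shown because the UMIs of each receptor lay almost wholly in one class, those of Notch3 in mural cells and those of Notch4 in endothelial cells. Both windows are RefSeq sequences on GRCm38.p6, from 250 bases before to 50 bases after the gene's start, written 5′ to 3′ on the gene's strand. The Notch3 window is chr17:32166841-32167140 on the minus strand, and its capitals mark the GC box letters GGGCGG or their reverse complement.
Notch3: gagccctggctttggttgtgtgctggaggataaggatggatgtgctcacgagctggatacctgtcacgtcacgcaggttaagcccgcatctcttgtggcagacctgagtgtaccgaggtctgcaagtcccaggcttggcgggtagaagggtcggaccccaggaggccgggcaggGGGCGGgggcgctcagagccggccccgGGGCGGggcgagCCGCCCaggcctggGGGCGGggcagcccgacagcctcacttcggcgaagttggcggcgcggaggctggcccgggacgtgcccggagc
The Notch4 window is chr17:34564045-34564344 on the plus strand, and its capitals mark the AP-1 letters TGACTCA.
Notch4: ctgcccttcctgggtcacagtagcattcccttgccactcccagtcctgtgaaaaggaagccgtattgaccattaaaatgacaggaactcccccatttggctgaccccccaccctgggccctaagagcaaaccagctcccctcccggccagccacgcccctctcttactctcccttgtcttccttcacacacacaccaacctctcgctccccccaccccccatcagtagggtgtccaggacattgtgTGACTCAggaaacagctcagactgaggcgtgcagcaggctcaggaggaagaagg
Searched on both strands, GGGCGG occurred 4 times in the Notch3 window, 0 times in the Notch4 window and in 35.66% of all 32851 promoter windows of this length. TGACTCA occurred 1 time in the Notch4 window, 0 times in the Notch3 window and in 5.202% of all windows. The RBPJ letters TGGGAA, found in 25.56% of all windows, were in 0 of the 7 members with a window (Notch1, Notch2, Notch3, Notch4, Dll4, Jag1 and Jag2). Hey1, Heyl and Hes1 had no window in the table used. These matches describe letters in a window and were not tied to the values that follow.

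Values are unique molecular identifiers (UMIs), each a counted RNA molecule, summed over the cells of a type in a library and given as CPM, the gene's count divided by all UMIs of those cells and scaled to one common total. They compare 1 gene between cell types and libraries, not genes with each other. Cells were named from marker genes after clustering on genes that left out the Notch pathway, and are called arterial-like and so on. After cells with markers of another class were set aside, endothelial-like cells numbered 1884 and 3066 in the deligated and 3474 and 3421 in the homeostatic libraries. Mural-like cells, the smooth muscle and pericytes that wrap vessels, numbered 310 and 423 against 105 and 64, and fibroblast-like cells 344 and 704 against 243 and 248. The labels describe the samples as stroma-enriched, yet the epithelial marker list summed to 573.5 and 594 CPM within endothelial-like cells of the homeostatic libraries against 22.0 and 31.35 CPM in the deligated. The deligated matrices carry Cell Ranger 6.0.1 in their headers and the homeostatic matrices 7.0.0. Over all genes, the deligated to homeostatic log2 fold change fell with a gene's intron length, with Spearman's rho of -0.42 in endothelial-like, -0.43 in mural-like and -0.53 in fibroblast-like cells, so some results are also given with that trend removed. Whether either version was set to count intronic reads is not given in the sources used here, so a CPM may not cover the same RNA in both groups. Barcodes shared by a pair of libraries numbered 14 to 54. All counting limits below cover counting error only.

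**Figure D1:**
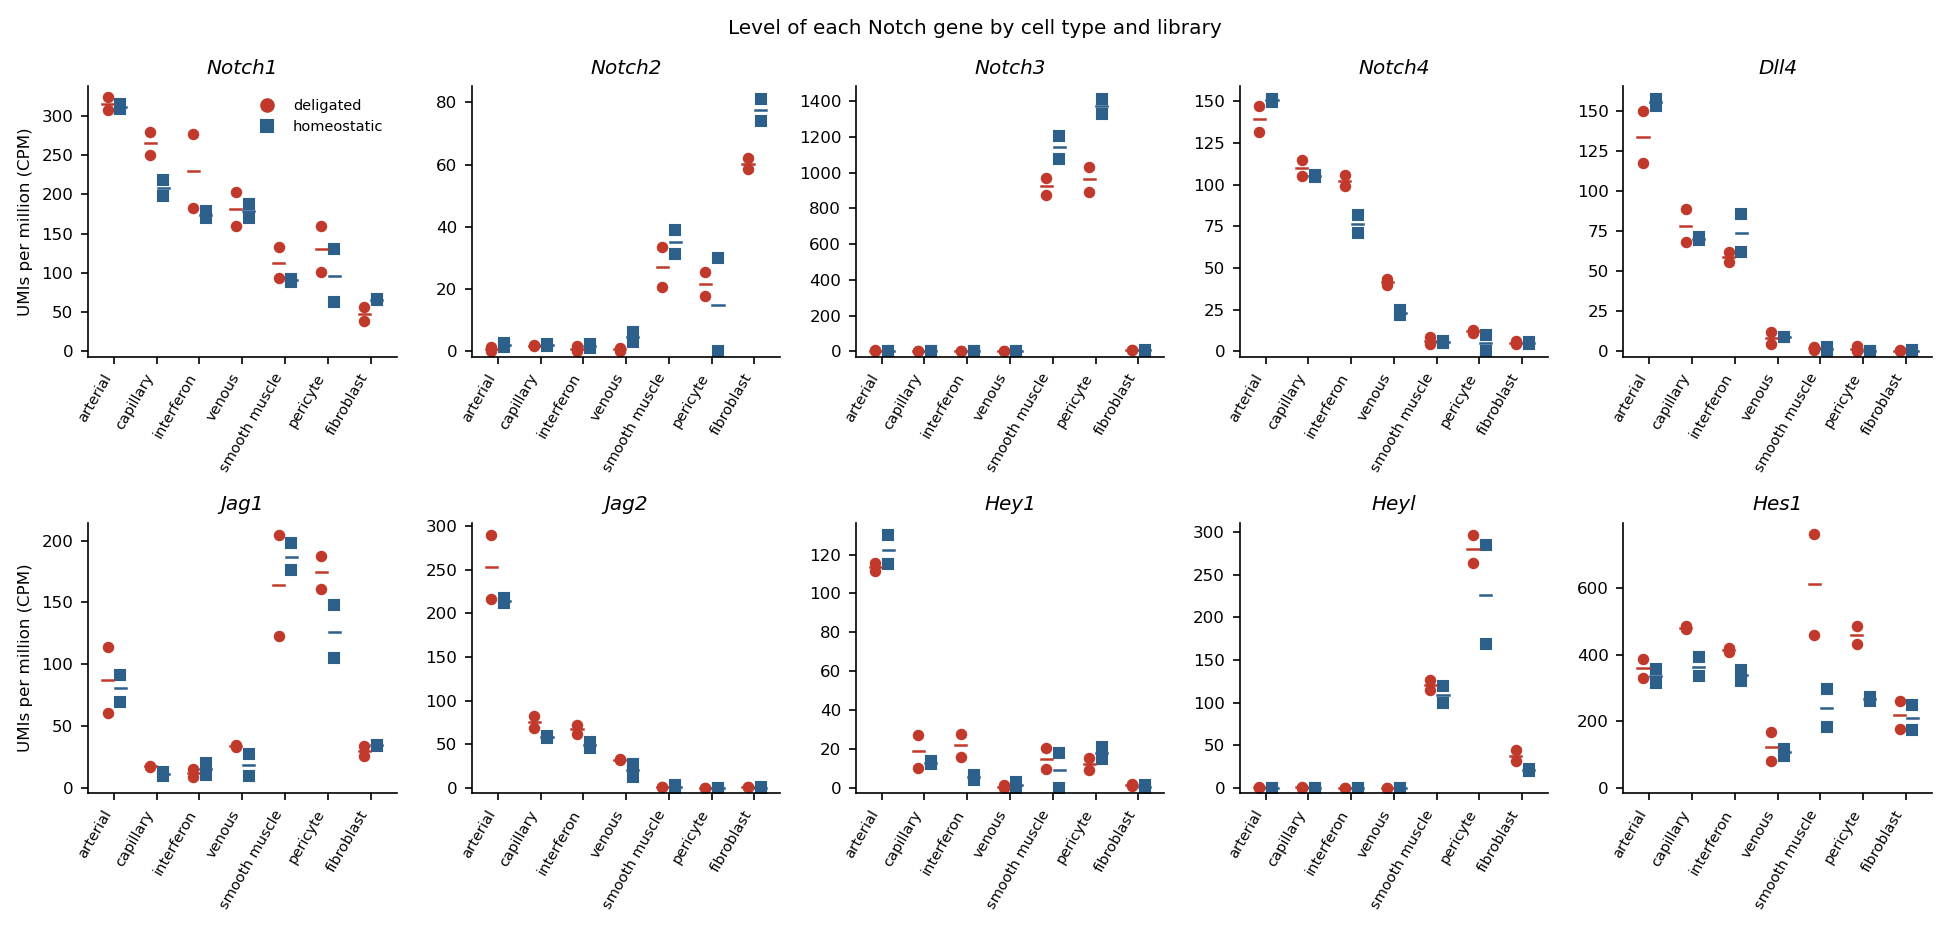
Level of each of the 10 Notch genes in CPM (y axis, linear, a scale of its own in each panel) in 7 cell types (x axis), with 1 point per library, circles for deligated and squares for homeostatic, and a short line at the mean of each pair. Notch1, Notch4, Dll4, Jag2 and Hey1 peak in arterial-like cells, Notch3 and Heyl in mural cells, and Notch2 in fibroblast-like cells.

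Among the receptors, Notch1 (chr2:26457903-26516663, minus strand), the principal receptor of endothelial cells, was highest in arterial-like cells of both groups among the 7 types compared. Gene positions are those of GENCODE M21 on GRCm38. It stood at 324 and 308 CPM in the deligated and 309 and 315 CPM in the homeostatic libraries. Capillary-like cells followed with 251 and 280 CPM against 218 and 198 CPM, and no arterial-like library overlapped a capillary-like library of its own group. Venous-like cells held 159 and 203 CPM against 169 and 188 CPM. Smooth muscle-like cells held 93.2 and 133 CPM against 92.7 and 88.5 CPM, and pericyte-like cells 101 and 160 CPM against 130 and 63.3 CPM, so that the 2 mural types overlapped in both groups, and pericyte-like cells also overlapped venous-like cells in the deligated libraries. Fibroblast-like cells held 38.6 and 56.1 CPM against 65.1 and 66.8 CPM, the lowest in each group by mean, though the homeostatic pericyte-like value of 63.3 CPM, from 3 UMIs, lay below them. Endothelial-like cells carried 75.1% to 83.4% of each library's Notch1 UMIs.

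Notch4 (chr17:34564268-34588503, plus strand), a receptor restricted to endothelium in most tissues, followed the same endothelial order with a sharper edge. Arterial-like cells held 131 and 147 CPM in the deligated and 150 and 152 CPM in the homeostatic libraries. Capillary-like cells held 105 and 115 CPM against 105 and 106 CPM, and venous-like cells 43.5 and 39.6 CPM against 21.5 and 24.7 CPM. In fibroblast-like cells the level was 4.18 to 6.03 CPM over the 4 libraries. Between 90.15% and 93.65% of Notch4 UMIs lay in endothelial-like cells.

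Notch3 (chr17:32120820-32166852, minus strand), the receptor of vascular smooth muscle and pericytes, was the mirror image. It overlaps Gm17276 on the other strand, and whether the counting used strand is not given in the sources used here. Mural-like cells held 883 and 996 CPM in the deligated and 1204 and 1217 CPM in the homeostatic libraries. Pericyte-like cells stood at 893 and 1033 CPM against 1414 and 1329 CPM, and smooth muscle-like cells at 877 and 971 CPM against 1079 and 1203 CPM; the pair overlapped in the deligated and not in the homeostatic libraries. Mural-like cells, though few, held 93.4% to 95.1% of each library's Notch3 UMIs. In fibroblast-like cells Notch3 was at 8.83 and 10.1 CPM against 3.58 and 6.01 CPM, and endothelial-like cells lay between 0.569 and 2.97 CPM.

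Notch2 (chr3:98013527-98150361, plus strand), a receptor shared by many cell types, had a different pattern, with fibroblast-like cells highest at 58.6 and 62.0 CPM in the deligated and 74.1 and 81.2 CPM in the homeostatic libraries. Smooth muscle-like cells followed at 20.5 and 33.4 CPM against 38.9 and 31.2 CPM, without overlap with fibroblast-like cells of the same group. Endothelial-like cells held 1.32 to 2.99 CPM. Macrophage-like cells held 69.3 and 60.8 CPM in the homeostatic libraries, and 23.1 and 27.4 CPM in the deligated from only 5 and 12 UMIs. Outside the endothelial, mural and fibroblast classes lay 84.2% and 81.6% of the homeostatic and 38.0% and 49.4% of the deligated Notch2 UMIs. That share covers all other cells, named or not, and not macrophage-like cells alone. Cell numbers changed with it: epithelial-like cells were 3617 and 3884 in the homeostatic and 53 and 155 in the deligated libraries. Macrophage-like cells were 909 and 895 against 37 and 92. Endothelial-like and mural-like cells held at most 4.08% and 7.98% of a library's Notch2 UMIs.

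Dll4 (chr2:119325784-119335962, plus strand), the Delta-like ligand that endothelial tip and arterial cells display, was graded along the vascular tree. Arterial-like cells held 118 and 150 CPM in the deligated and 153 and 158 CPM in the homeostatic libraries, and capillary-like cells 68.2 and 88.8 CPM against 69.7 and 71.1 CPM. Venous-like cells held 12.1 and 4.40 CPM against 9.23 and 9.25 CPM, from 2 to 10 UMIs per library. Mural-like and fibroblast-like cells had 0 to 7 UMIs per library. After every cell was thinned to 1000 UMIs, a Dll4 UMI was found in 14.9% and 16.6% of deligated and 14.1% and 12.4% of homeostatic arterial-like cells (56.0%, 43.5%, 38.6% and 39.1% unthinned). In natural killer (NK) and innate lymphoid-like cells, which should lack Dll4, the thinned share was 0 to 0.141%, with median depths of 5509 to 6206 UMIs per cell against 3604 to 7070 in arterial-like cells.

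Jag2 (chr12:112907819-112929776, minus strand), a Jagged ligand of endothelium, had a steeper step from arterial-like to capillary-like cells. Arterial-like cells held 217 and 290 CPM in the deligated and 212 and 218 CPM in the homeostatic libraries, against 69.1 and 82.8 CPM and 56.7 and 59.7 CPM in capillary-like cells. Venous-like cells held 31.4 and 33.0 CPM against 27.7 and 12.3 CPM. Pericyte-like cells had 0 Jag2 UMIs in all 4 libraries, which allows up to 3.53 and 3.33 CPM in the deligated and only 15.0 and 63.3 CPM in the smaller homeostatic sums (3 counts per library). Endothelial-like cells held 93.6% to 95.8% of Jag2 UMIs.

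Jag1 (chr2:137081456-137116644, minus strand), the Jagged ligand through which endothelium and wall cells signal to smooth muscle, was the one ligand high on both sides of the vessel wall. Mural-like cells held 138 and 198 CPM in the deligated and 150 and 192 CPM in the homeostatic libraries. Arterial-like cells held 60.3 and 114 CPM against 69.4 and 91.6 CPM, below smooth muscle-like cells at 123 and 205 CPM against 176 and 198 CPM without overlap within a group. Fibroblast-like cells held 25.6 and 34.2 CPM against 34.1 and 34.9 CPM, and capillary-like cells 17.2 and 17.6 CPM against 12.6 and 9.67 CPM. In the deligated libraries 36.5% and 37.25% of Jag1 UMIs came from mural-like cells, against 14.0% and 15.8% in the homeostatic libraries. The number of mural-like cells changed with it, while the CPM level in those cells overlapped between the groups.

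Within arterial-like cells, Jag1 spanned a wider range than the other 6 members plotted. Endothelial-like cells of each group were clustered on their own, and in each group 3 arterial-like sub-clusters could be paired by leading genes they had in common, though not all leading genes were: one with Efhd1, Glul and Scube3, one with Nebl, Pcsk5 and Fbln5, and one with Gkn3 and Cytl1. They held 134, 67 and 42 cells in deligated replicate 1, 210, 148 and 28 in deligated replicate 2, 314, 120 and 48 in homeostatic replicate 1 and 237, 114 and 54 in homeostatic replicate 2. Jag1 stood at 15.1 and 18.3 CPM in the deligated and 11.7 and 3.89 CPM in the homeostatic libraries in the Efhd1 sub-cluster. In the Nebl sub-cluster it was 65.6 and 176 CPM against 102 and 111 CPM. In the Gkn3 sub-cluster it was 254 and 421 CPM against 303 and 409 CPM, from 71 to 104 UMIs per library. Each library gave the same order, and the lowest Gkn3 value exceeded the highest Efhd1 value. The Gkn3 sub-cluster also held most Bmx, an arterial marker used in the naming, at 420 and 277 CPM against 363 and 507 CPM.

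Jag2 was higher in the Nebl than in the Efhd1 sub-cluster, going from 117 and 178 to 324 and 442 CPM in the deligated and from 139 and 141 to 323 and 342 CPM in the homeostatic libraries. Hey1, a repressor that Notch induces in arteries, went from 90.5 and 66.8 to 153 and 170 CPM and from 105 and 63.2 to 189 and 213 CPM over the same step. From the Nebl to the Gkn3 sub-cluster neither gene moved the same way in all 4 libraries. In the Gkn3 sub-cluster Jag2 was at 484 and 359 CPM against 350 and 291 CPM, and Hey1 at 135.5 and 190 CPM against 137 and 118 CPM. Hes1 was lower in the Gkn3 than in the Efhd1 sub-cluster: it was 380 and 412 CPM against 376 and 467 CPM in the Efhd1 sub-cluster and 224 and 236 CPM against 132 and 98.3 CPM in the Gkn3 sub-cluster. Notch1 was lower in the Gkn3 than in the Nebl sub-cluster in all 4 libraries, at 315 and 190 CPM against 346 and 355 CPM in the deligated and 235 and 236 CPM against 359 and 340 CPM in the homeostatic. These levels are descriptions without a test, since the sub-clusters were drawn from the same cells. A further homeostatic arterial-like sub-cluster led by Snhg6, with 29 and 22 cells of low depth, shared Snhg6, Rps21, Rpl23a and Rpl30 among its leading genes with a deligated sub-cluster of 49 and 34 cells that stayed unnamed for want of markers.

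**Figure D2:**
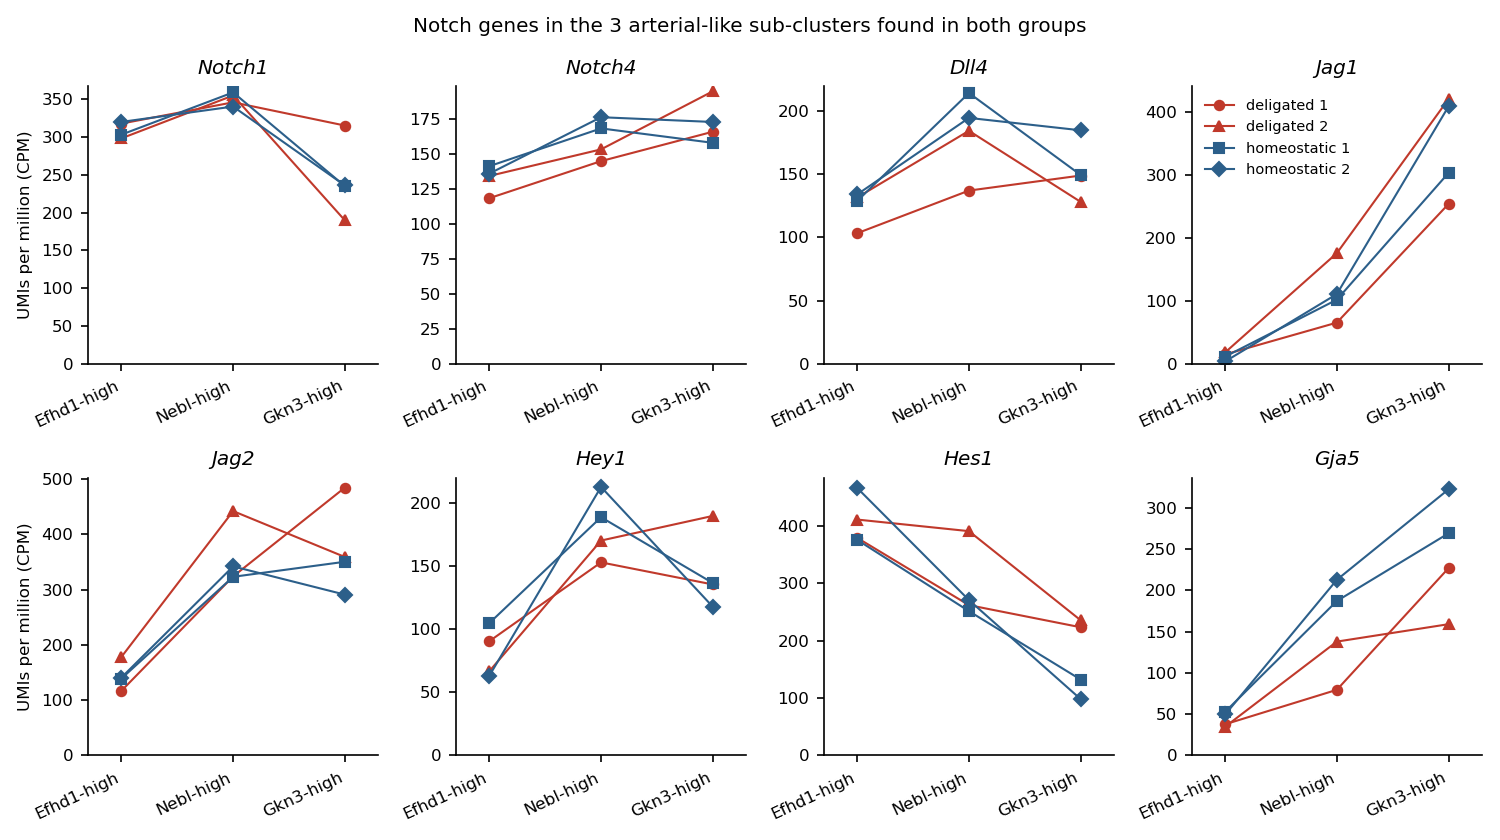
Level in CPM (y axis, linear from 0) of 7 Notch genes and of the arterial connexin gene Gja5 in the 3 arterial-like sub-clusters paired between the groups (x axis, named by a leading gene in common), with 1 line per library. Jag1 climbs from at most 18.3 CPM in the Efhd1 sub-cluster to at least 254 CPM in the Gkn3 sub-cluster in all 4 libraries, while Hes1 declines.

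Of the targets, Hey1 (chr3:8663359-8667256, minus strand) was concentrated in arteries. Arterial-like cells held 112 and 116 CPM in the deligated and 130 and 115 CPM in the homeostatic libraries. Capillary-like cells held 27.1 and 10.3 CPM against 13.6 and 12.4 CPM, with deligated replicate 1 standing above the other libraries. In that library 118 of the 153 Hey1 UMIs of capillary-like cells lay in a sub-cluster led by Penk and Esm1 (40.7 CPM), which made up 331 of its 760 capillary-like cells but 84 of 1690 in deligated replicate 2 (21.1 CPM). The Esm1 sub-cluster of the homeostatic libraries, with 398 and 379 cells, held 40.9 and 37.3 CPM. These 2 sub-clusters had Esm1, a sprouting marker, and no capillary marker among their leading genes. All capillary-like sub-clusters were named by capillary markers against arterial-like and venous-like cells. Only a deligated one of 806 cells had capillary markers among its leading genes. Without the 2 Esm1 sub-clusters, capillary-like cells held Hey1 at 12.8 and 9.55 CPM against 6.40 and 6.31 CPM. Venous-like cells had 0 or 1 Hey1 UMI per library. Smooth muscle-like cells held 9.54 and 20.6 CPM after deligation and 17.9 and 0.00 CPM in homeostasis, from 13, 29, 6 and 0 UMIs, so that the groups overlapped; the 0 allows up to 7.81 CPM.

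Heyl (chr4:123233556-123249875, plus strand), a relative of Hey1 known from smooth muscle and pericytes, kept to the wall and the interstitium. Pericyte-like cells held 264 and 296 CPM in the deligated and 285 and 169 CPM in the homeostatic libraries, where the last value rests on 8 UMIs. Smooth muscle-like cells held 126 and 115 CPM against 120 and 98.9 CPM, below pericyte-like cells in each library. Fibroblast-like cells held 31.0 and 44.6 CPM against 21.5 and 19.2 CPM. Endothelial-like cells had 1, 13, 0 and 2 Heyl UMIs (deligated replicates, then homeostatic), among 14058871 to 16493344 UMIs per library.

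Hes1 (chr16:30064384-30067796, plus strand), a repressor induced by Notch and by other signals, was broad. In the homeostatic libraries capillary-like cells held 336 and 392.2 CPM, arterial-like cells 315 and 356 CPM and interferon-responsive endothelial cells 321 and 355 CPM, and neighbours in that order overlapped. Venous-like cells were lowest of the vascular and stromal types, at 95.4 and 117 CPM in the homeostatic and 167 and 79.3 CPM in the deligated libraries. T cell-like cells held 3.92 to 10.9 CPM over the 4 libraries.

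For each member the 3 genes of closest pattern were found over 40 sums (10 cell types in 4 libraries) by Pearson's r of log2(CPM + 1) among 13345 genes. The sums share libraries and depth, and r is a description. The genes closest to Notch3 were Itga7, Higd1b and Olfr558 (r = 0.96 each), those closest to Heyl were Dzip1l, Sod3 and Mrgprf (0.97 to 0.982), and those closest to Notch4 were Rdx, Slc9a3r2 and Rflnb (0.956 to 0.97). Notch1 was closest to Ripor1, Lats2 and Sptan1 (0.953 to 0.964), and Notch2 to Btbd11, Rtn4rl1 and Dock11 (0.883 to 0.905). Jag2 was closest to Sox17, an arterial transcription factor, with Ptprr and 8430408G22Rik (0.947 to 0.963). Dll4 was closest to Sema7a, Efr3b and Jag2 itself (0.936 to 0.943), and Jag1 to Kank2, Map3k20 and Kif1c (0.904 to 0.908). Hey1 was closest to P2ry2, Slc12a5 and the tight junction gene Cldn5 (0.833 to 0.874), and Hes1 to Cdc42ep4, Aldh2 and Tax1bp3 (0.895 to 0.92).

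Whether release of the ducts went with other Notch levels was asked by testing deligated against homeostatic sums over all genes with edgeR's quasi-likelihood test and Benjamini-Hochberg adjustment, with 0.05 as the threshold. In endothelial-like cells 5 of the 9 members tested were higher in the deligated libraries and 0 lower: Notch1, Notch3, Jag1, Jag2 and Hes1. Of all 13134 genes tested there, 35.7% were called and 13.1% were called higher, so calls were common in this class. When all cells were clustered together, different clusters held most of the class in each group: cluster 0 (5051 cells) had 0 and 3 deligated cells, clusters 11 and 13 had 0, and cluster 1 (4129 cells) had 31 and 34 homeostatic cells. The class also includes sub-clusters left unnamed, of 584, 436, 383 and 83 deligated and 717 and 459 homeostatic cells. The members' median log2 fold change was 0.30 and that of all genes -0.00. With the intron-length trend removed, 4 of 9 members were called where 29.6% of all genes were, and the members' median was 0.14 with that of all genes still at -0.00. Calls over members and over all genes moved together when 1 library was left out. Without homeostatic replicate 1, 0 of 10 members passed and 2211 of 13475 genes did, and without homeostatic replicate 2, 0 of 9 members and 2300 of 13490 genes. Without deligated replicate 1, 8 of 10 members passed (7 higher and 1 lower) and 7769 of 13752 genes, and without deligated replicate 2, 7 of 9 members (6 higher and 1 lower) and 7613 of 13621 genes.

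Jag2 went from 80.3 and 77.1 CPM in the homeostatic to 93.3 and 106 CPM in the deligated endothelial-like cells (log2 fold change 0.36 ± 0.08 SE in edgeR, with adjusted p = 0.016; 0.28 and adjusted p = 0.043 with the trend removed). Notch1 went from 220 and 204 CPM to 242 and 274 CPM (log2 fold change 0.30 ± 0.09 SE in edgeR, with adjusted p = 0.036). With the trend removed Notch1 was at 0.43 (adjusted p = 0.014). It was called in 10 of 12 other settings, but not with replicate number as a block in edgeR (adjusted p = 0.082). Both genes had deligated libraries above homeostatic ones without overlap. Jag1 went from 22.9 and 22.1 CPM to 25.7 and 29.9 CPM (log2 fold change 0.32 ± 0.10 SE in edgeR, with adjusted p = 0.042). It was called in 8 of 12 other settings. Among those it missed were DESeq2 (adjusted p = 0.18), the stricter cell filter (adjusted p = 0.10) and replicate number as a block in edgeR (adjusted p = 0.07). Hes1 went from 297 and 339 CPM to 380 and 414 CPM (log2 fold change 0.34 ± 0.10 SE in edgeR, with adjusted p = 0.042), a call lost once the intron-length trend was removed (0.14, adjusted p = 0.34). Notch4 (0.10, SE 0.08), Dll4 (0.02, SE 0.14) and Hey1 (0.02, SE 0.21), 3 genes with high arterial levels, had edgeR adjusted p-values of 0.35, 0.93 and 0.95. Dll4 and Hey1 passed in opposite directions when a deligated library was left out: Dll4 was at 0.21 without replicate 1 (adjusted p = 0.0020) and -0.18 without replicate 2 (adjusted p = 0.019), and Hey1 at -0.32 and 0.33 (adjusted p = 0.0035 and 0.0017). Notch2 was at -0.49 (SE 0.35, edgeR adjusted p = 0.31), and at 0.07 with the trend removed.

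The Notch3 call in endothelial-like cells rests on 28 and 49 UMIs after deligation and 12 and 8 UMIs in homeostasis (1.94 and 2.97 against 0.832 and 0.569 CPM; log2 fold change 1.82 ± 0.37 SE in edgeR, with adjusted p = 0.010). NK and innate lymphoid-like cells, which should lack Notch3, held 4.79 and 2.92 CPM in the deligated and 0.00 and 0.27 CPM in the homeostatic libraries. Over the whole class the deligated values were at or below that level, within counting error, and are not read as expression; the homeostatic ones rest on too few UMIs to be set against 0 and 2 UMIs in NK and innate lymphoid-like cells. The UMIs were unevenly spread: in deligated replicate 1, 12 of the 28 lay in the 42 cells of the Gkn3 sub-cluster, at 40.65 CPM. Arterial-like cells of that library held Notch3 at 7.06 CPM, above its NK level, and mural markers at 214 CPM, against 30.5 to 73.2 CPM of those markers in the arterial-like cells of the other libraries. Mural-like cells, the source of most Notch3 UMIs, were 310 and 423 in the deligated and 105 and 64 in the homeostatic libraries. All 9 mural markers were detected in endothelial-like cells, summing to 71.9 and 69.5 CPM against 45.4 and 19.7 CPM.

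Within the subtypes, arterial-like cells had 0 of 7 tested members called, where 17.6% of 9955 genes were called; 0 of the 7 had an unadjusted edgeR p below the threshold. Their log2 fold changes lay from -0.21 (Dll4, SE 0.13) to 0.24 (Jag2, SE 0.13). Without deligated replicate 1, 2 of the 7 passed, Jag1 and Jag2, with 2266 of 10324 genes. Capillary-like cells had 5 of 9 members called, all higher in the deligated libraries, where 31.6% of 12101 genes were called. These were Notch1 (log2 fold change 0.37 ± 0.09 SE in edgeR, with adjusted p = 0.018), Jag1 (0.66, SE 0.17, adjusted p = 0.018), Jag2 (0.41, SE 0.10, adjusted p = 0.017), Hes1 (0.42, SE 0.11, adjusted p = 0.022) and Notch3, again on few UMIs (10 and 27 against 4 and 5). With the trend removed Hes1 lost its call (0.22, adjusted p = 0.19). Some deligated capillary-like sub-clusters lay mostly in 1 library. One led by Cyp26b1 and Inhbb had 15 and 448 cells in deligated replicates 1 and 2, and one led by Igtp and Cd274 had 8 and 317. Their part in these calls was not tested. Without homeostatic replicate 1 only Jag1 passed, 1 of 9 members beside 1587 of 12473 genes, and without homeostatic replicate 2, 0 of 9 beside 1587 of 12498. With the Esm1 sub-clusters left out, an alternative chosen after the data were seen, 6 of 9 members passed beside 3915 of 11744 genes: the same 5, with Jag1 at 0.53 (adjusted p = 0.045) and Hes1 at 0.63 (adjusted p = 0.0018), and Hey1 (0.75, adjusted p = 0.041). Between arterial-like and capillary-like cells 0 of 8 members passed the test of a difference in the group effect, an interaction fitted with the library as a block, where 0.663% of 11465 genes did; 3 of the 8 had an unadjusted p below the threshold. The nearest were Hes1 (arterial minus capillary -0.31, SE 0.09, edgeR adjusted p = 0.14) and Notch1 (-0.34, SE 0.10, adjusted p = 0.18). Leaving out deligated replicate 2 gave 2 member calls (186 of 11747 genes) and deligated replicate 1 gave 1 (136 of 12423 genes). Without the Esm1 sub-clusters 1 of 7 passed, Hes1 (-0.49, adjusted p = 0.013), where 102 of 10739 genes did.

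Interferon-responsive endothelial cells had 1 of 7 members called, where 11.3% of 7683 genes were. Hey1 there had 9 and 9 UMIs after deligation and 4 and 6 in homeostasis (27.9 and 15.9 against 4.22 and 6.70 CPM; log2 fold change 1.87 ± 0.57 SE in edgeR, with adjusted p = 0.033; 1.72 and 0.077 with the trend removed), and it lost its call without any 1 of the 4 libraries. Venous-like cells had 0 of 5 members called and 1 at an unadjusted p below the threshold, where 8.59% of 5904 genes were called; without deligated replicate 2, Hes1 passed. In homeostatic replicate 1 these cells held mural markers at 834 CPM, against 18.5 to 70.45 CPM in the other libraries.

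**Figure D3:**
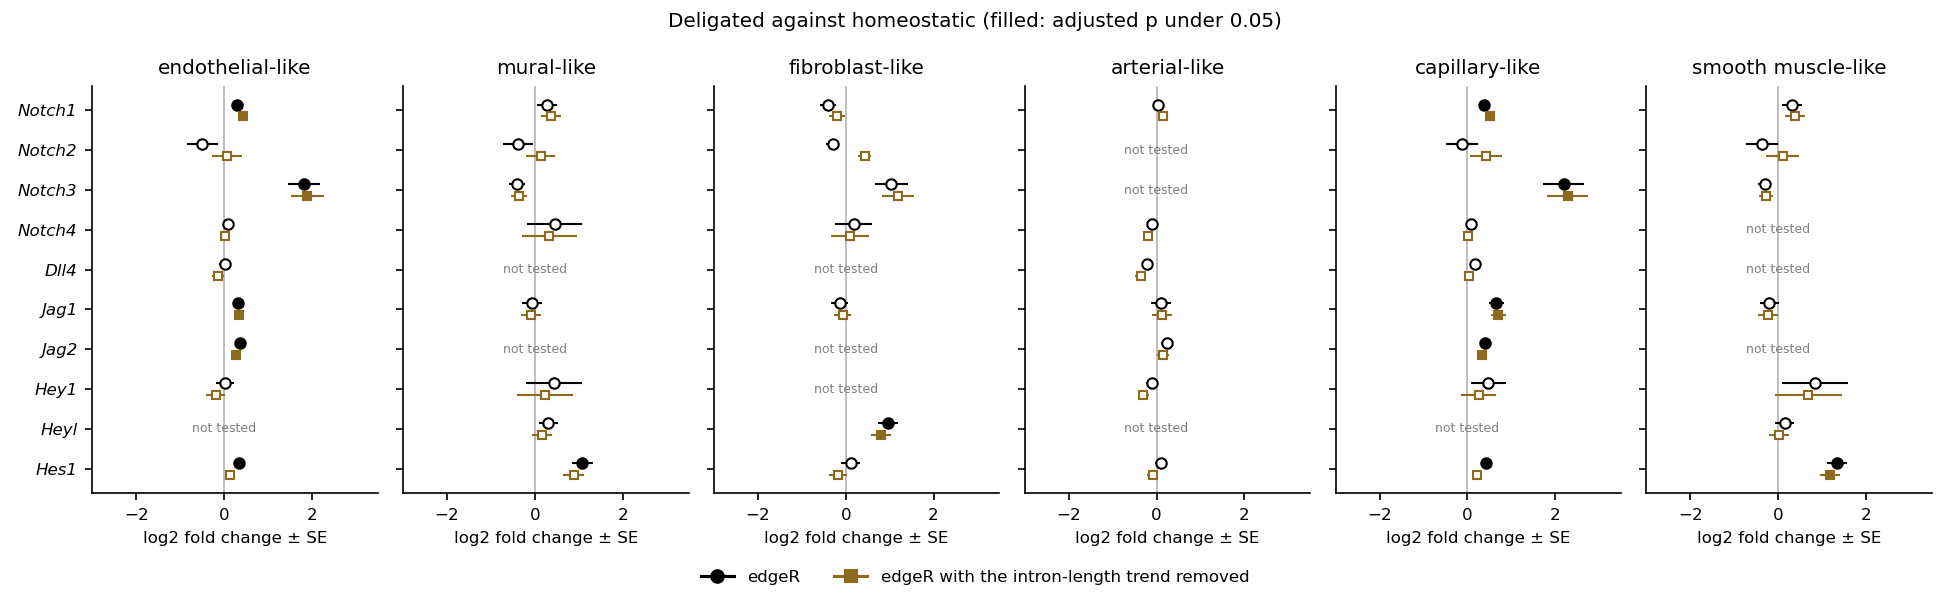
Log2 fold change of deligated over homeostatic libraries with its standard error (x axis) for each member (y axis) in 6 cell types, as fitted with edgeR (black circles) and with the intron-length trend removed (brown squares), filled where the adjusted p is under 0.05. In capillary-like cells 5 members are filled and in arterial-like cells 0; Hes1 is filled in smooth muscle-like cells in both fits.

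In mural-like cells 1 of 8 members was called, Hes1, where 5.87% of 9614 genes were called and 0.728% called higher. Hes1 stood at 448 and 655 CPM in the deligated and 211 and 294 CPM in homeostasis, so that the groups did not overlap (log2 fold change 1.08 ± 0.24 SE in edgeR, with adjusted p = 0.019). With the trend removed 0 of 8 members passed, where 2.32% of genes did (Hes1 0.89, adjusted p = 0.089), and without homeostatic replicate 1 also 0. In smooth muscle-like cells alone Hes1 was at 459 and 763 CPM against 182 and 297 CPM (log2 fold change 1.33 ± 0.23 SE in edgeR, with adjusted p = 0.00026; 1.17 and adjusted p = 0.0021 with the trend removed), 1 of 7 members called where 6.29% of 8129 genes were. Leaving out any 1 library kept that call, and the stricter cell filter, which left 21 and 46 deligated and only 9 and 4 homeostatic cells, lost it (1.30, adjusted p = 0.21). Pericyte-like cells were too few for a test, and Hes1 in them was at 431 and 486 CPM against 260 and 274 CPM.

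In smooth muscle-like and capillary-like cells another signal moved with Hes1. The 17 immediate early and dissociation genes, which cells switch on under stress and enzyme treatment, summed to 3310.4 and 5783.5 CPM in deligated and 1405 and 1812 CPM in homeostatic smooth muscle-like cells. By the same test 11 of the 17 rose, where 6.29% of all genes were called in either direction. In capillary-like cells the 17 genes summed to 10276.5 and 10936 CPM against 5229.8 and 4999 CPM. Of them, 16 of 17 were called higher, where 31.6% of all genes were called in either direction. In other types the list and Hes1 did not always run together. In pericyte-like cells the list overlapped between the groups, at 2326.7 and 2938.2 CPM against 2263.4 and 2868 CPM, while Hes1 did not. In arterial-like cells the list was at 5645 and 6442 CPM against 3328 and 3073 CPM and in fibroblast-like cells at 3391 and 3450 CPM against 2157 and 1986 CPM, without overlap, while the Hes1 log2 fold changes were 0.10 and 0.11 (edgeR adjusted p = 0.63 and 0.73). The 5 erythroid markers stood apart in deligated replicate 2, at 5491 CPM in smooth muscle-like cells against 29.3 to 102 CPM in the other libraries. Fibroblast markers in smooth muscle-like cells summed to 330 and 342 CPM in the deligated and 140.5 and 232 CPM in the homeostatic libraries, without overlap. The part of any of these lists in the Hes1 result was not tested. Notch3 in mural-like cells did not pass the test (log2 fold change -0.40 ± 0.18 SE in edgeR, with adjusted p = 0.26), although both deligated libraries lay below both homeostatic ones. Jag1 (-0.06, SE 0.23) and Heyl (0.31, SE 0.22) had adjusted p-values of 0.94 and 0.53. The 8 contractile genes, 7 of them tested, had 0 called in mural-like cells.

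In fibroblast-like cells 1 of 7 members was called, where 25.8% of 11336 genes were called and 8.42% called higher. Here too the groups lay in different joint clusters, cluster 8 with 9 and 8 homeostatic of 1118 cells and cluster 19 with 0 deligated of 479. Heyl went from 21.5 and 19.2 CPM in homeostasis to 31.0 and 44.6 CPM after deligation (log2 fold change 0.96 ± 0.23 SE in edgeR, with adjusted p = 0.012; 0.81 and adjusted p = 0.036 with the trend removed, where 16.7% of genes were called). Without homeostatic replicate 1 or 2, 0 of 7 members passed, with 994 of 12132 and 1076 of 12126 genes. Without deligated replicate 1, 3 of 6 passed (Heyl, Notch3 and Hes1, all higher) with 4181 of 10836 genes, and without deligated replicate 2, 2 of 7 (Heyl higher and Notch1 lower) with 3980 of 10838 genes. All 9 mural markers were detected in fibroblast-like cells and summed to 558 and 575 CPM in the deligated and 422 and 401 CPM in the homeostatic libraries. Erythroid markers summed to 56.7 and 1814 CPM in the deligated and 437 and 61.3 CPM in the homeostatic libraries. The part of either list in the Heyl result was not tested. Notch3 was at 1.04 (SE 0.38, edgeR adjusted p = 0.072), on 41 and 63 against 6 and 10 UMIs. It passed in 2 of 11 other settings, the stricter cell filter (adjusted p = 0.048) and doublets kept (adjusted p = 0.015). Notch2 was at -0.30 (SE 0.14, adjusted p = 0.16), at -0.49 with doublets kept, where it passed (adjusted p = 0.028), and at 0.43 with the trend removed (adjusted p = 0.070), so that its direction depended on the setting; its introns span 126.1 kb, the most of any member.

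Whether the group effect differed between classes was tested as an interaction. Between endothelial-like and mural-like cells 1 of 10 members passed, where 0.769% of 13653 genes did: Notch3 (endothelial minus mural 2.17, SE 0.34, edgeR adjusted p = 0.00069), whose endothelial UMIs are the few, unevenly spread ones described above; without homeostatic replicate 2 it did not pass (1.94, adjusted p = 0.091). Hes1 was at -0.77 (SE 0.19, adjusted p = 0.061), the larger effect being in mural-like cells. Between endothelial-like and fibroblast-like cells 0 of 10 passed, where 6.16% of 14138 genes did; Notch1 came nearest (0.56, SE 0.16, adjusted p = 0.051; 0.036 with the trend removed). Between mural-like and fibroblast-like cells 0 of 8 passed, where 0.225% of 11531 genes did; Hes1 was at 0.88 (SE 0.19, adjusted p = 0.096; 1.06 and 0.038 with the trend removed). Unadjusted p-values were below the threshold for 1 of 10 members in the comparison of endothelial with fibroblast cells and for 4 of 8 in that of mural with fibroblast cells.

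The rest of the pathway was followed through a list of 51 genes. In endothelial-like cells 18 of 44 tested genes were called, 10 higher and 8 lower, where 35.7% of all genes were called, with a median log2 fold change of 0.15 beside -0.00 for all genes. Leaving out 1 library gave 6 of 47 and 8 of 46 calls without homeostatic replicate 1 or 2, and 33 of 47 and 30 of 45 without deligated replicate 1 or 2. Maml2, a Mastermind-like coactivator, stood at 44.4 and 42.0 CPM in the deligated and 296 and 291 CPM in homeostasis (log2 fold change -2.74 ± 0.10 SE in edgeR, with adjusted p = 1.5e-05). Its relative Maml3 was at -1.71 and Numb, an adaptor that promotes receptor endocytosis, at -1.26 (edgeR adjusted p = 0.00024 and 0.00076). These are long genes, with introns of 404.8, 408.7 and 124.0 kb, and with the intron-length trend removed the 3 values were -1.49, -0.46 and -0.70. The same fit over mural-like cells called Maml2 (-2.74) and Maml3 (-1.87) only, 2 of 39 genes, both lower, where 5.87% of all genes were called. With the trend removed they were at -1.60 and -0.73 in mural-like cells, and the Maml3 call was lost (adjusted p = 0.11).

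Of the modifiers, the fringe transferase Mfng, which adds sugars that tune ligand choice, rose in endothelial-like cells from 30.5 and 32.2 to 42.4 and 51.7 CPM (log2 fold change 0.60 ± 0.10 SE in edgeR, with adjusted p = 0.0053; 0.52 with the trend removed, still called). In arterial-like cells Lfng (0.99, SE 0.18, adjusted p = 0.0019) and Mfng (0.86, SE 0.18, adjusted p = 0.0052) rose, the only 2 of 5 sugar transferases tested there that did, where 17.6% of all genes were called; this pair was chosen after the values were seen. Psen2, a catalytic subunit of gamma-secretase, rose from 11.2 and 11.2 to 22.3 and 19.8 CPM (0.93, SE 0.13, edgeR adjusted p = 0.0025), and Furin, which trims the receptor on its way to the surface, rose by 0.55 (SE 0.08, adjusted p = 0.0028). The ligand Dll1 rose by 0.52 (SE 0.11, adjusted p = 0.014), a call lost with the trend removed (adjusted p = 0.055). The ubiquitin ligase relative Dtx3 rose by 0.79 (SE 0.12, adjusted p = 0.0033). Dtx1 (2.87) and Aph1c (-2.13) were called on at most 39 UMIs per library, and Aph1c has a near-identical copy, Aph1b. Deligated arterial-like and capillary-like cells held 0 or 1 Dtx1 UMI, and lymphatic markers summed to 288 and 282 CPM in deligated against 121 and 174 CPM in homeostatic endothelial-like cells; their part in the Dtx1 call was not tested.

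In fibroblast-like cells 10 of 38 pathway genes were called, 3 higher and 7 lower, where 25.8% of all genes were called, with a median of 0.11 beside 0.01 for all genes. Without homeostatic replicate 1 or 2, 3 of 40 and 4 of 40 were called, and without deligated replicate 1 or 2, 16 of 38 and 13 of 38. Besides Maml2 (-2.82), Maml3 (-2.47) and Numb (-1.37), those lower were Itch (-0.70) and Fbxw7 (-0.88), both ubiquitin ligase genes whose calls were lost with the trend removed (adjusted p = 0.36 and 0.99), Id1 (-1.05) and Dlk1 (-2.23). Dlk1, a Delta-like protein of progenitor cells, had 2 and 35 UMIs after deligation and 29 and 24 in homeostasis. Higher were Hes6 (1.02), Numbl (0.59) and Id3 (0.56), and with the trend removed none of these 3 kept its call (adjusted p = 0.14, 0.060 and 0.45).

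**Figure D4:**
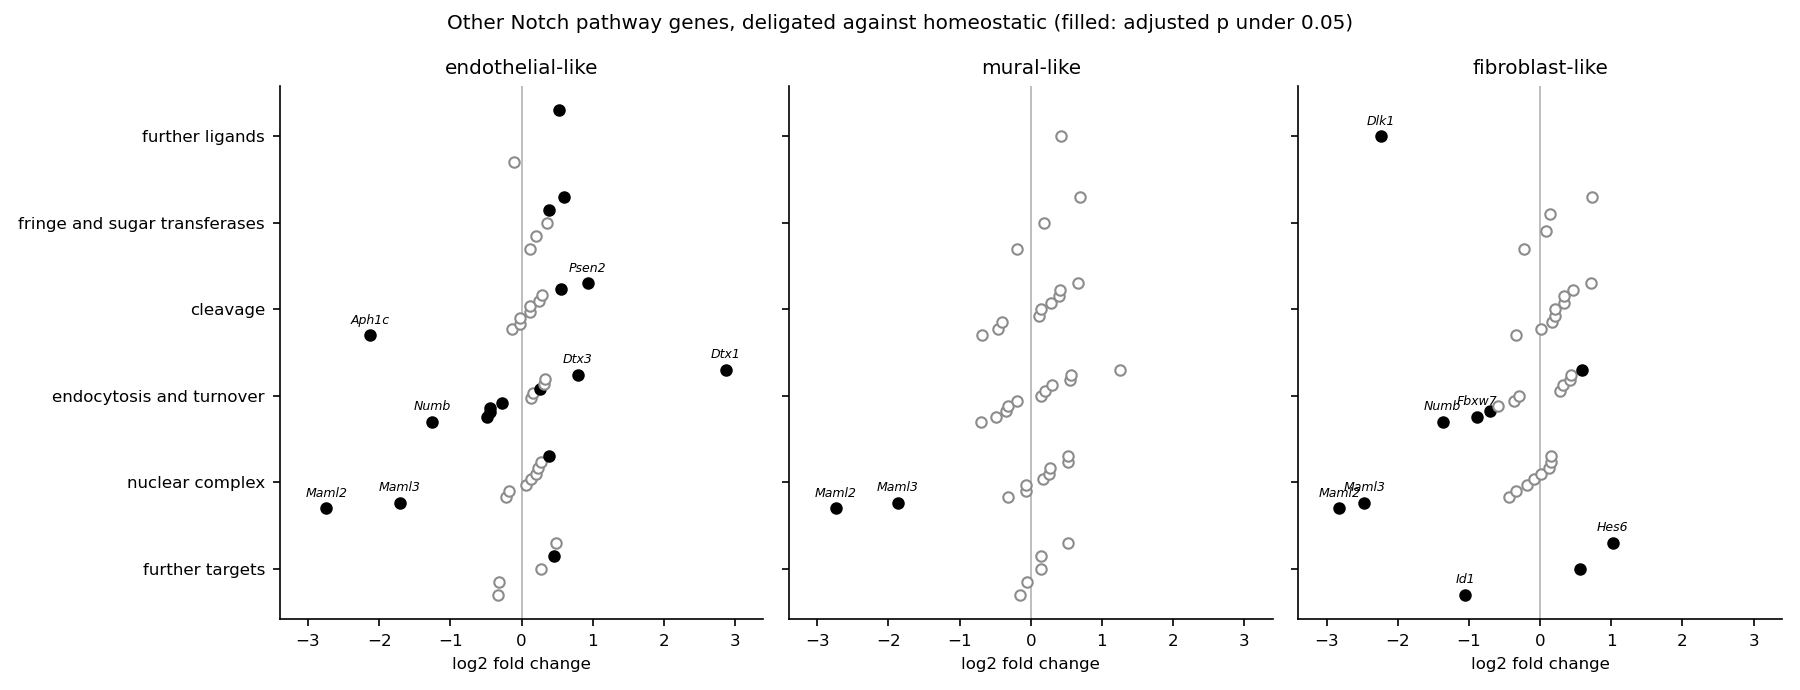
Log2 fold change of deligated over homeostatic libraries (x axis) of the pathway genes tested in 3 cell classes, grouped by role (y axis, points spread vertically within a role), filled where the edgeR adjusted p is under 0.05. Maml2 and Maml3 lie far to the left in all 3 classes, and 18 of 44 points are filled in endothelial-like, 2 of 39 in mural-like and 10 of 38 in fibroblast-like cells.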

How the data were processed

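Gene counts per cell barcode came from 10x Genomics 3′ single-cell libraries. The values deposited by the authors are whole-number UMI counts per gene and barcode, made with Cell Ranger 6.0.1 for the deligated and 7.0.0 for the homeostatic libraries, per the file headers; the submitters' processing notes name Cell Ranger 6.0.1, mm10 and Seurat. The libraries held 4725, 8713, 12854 and 13266 barcodes and 35662241, 53898793, 53633980 and 52379402 UMIs (deligated 1 and 2, homeostatic 1 and 2).

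From these counts, barcodes with at least 300 genes and at most 10% mitochondrial UMIs were kept and 164 to 1165 predicted doublets per library removed, leaving 4357 to 10900 cells. Cells were clustered (Leiden, leidenalg 0.10.2, python 3.11.15) without the Notch genes and named from markers. Departing from the plan, endothelial and fibroblast sub-clusters were found within each group, mural subtypes came from the joint clusters, sub-clusters with another class's markers at a ratio of 0.1 or more were set aside, and naming rules were set with the clusters in view. Sums per library and cell type were tested with edgeR 4.0.16 (R 4.3.3), quasi-likelihood, with Benjamini-Hochberg adjustment over all genes tested, after edgeR's filter on low counts. Standard errors were worked back from the log2 fold change and the F statistic of that test. On simulated counts with 200 genes changed 2-fold, the procedure recovered 144 in endothelial-like, 72 in mural-like and 111 in fibroblast-like cells. A missing call therefore does not show that a level was unchanged. Annotation for intron lengths was GENCODE M21 and promoter sequences were RefSeq's, which matched 7 of the 10 members.

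Alternatives were DESeq2 1.42.0, its size factors in edgeR, no filter, a replicate block, the intron-length trend removed, cells thinned to 1000 UMIs, doublets or mixed cells kept, finer clusters, Notch genes kept for clustering, a stricter cell filter, capillary-like cells without the sub-clusters led by a sprouting marker (added after the data were seen) and leaving out each library. The members and lists were chosen with earlier results of these data known. All members are named; of the pathway list, in each class, at most the 10 called genes with the largest absolute log2 fold change; for each member the 3 genes of highest correlation.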

Additional observations from a re-analysis of the deposited data

Results flagged for a closer look

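The group effect on Notch3 differed between endothelial-like and mural-like cells by 2.17 on the log2 scale (SE 0.34, edgeR interaction test, adjusted p = 0.00069), with an endothelial log2 fold change of 1.82 and a mural one of -0.40. It drew attention because the difference between the classes itself passed the test. The endothelial value rests on 8 to 49 UMIs per library, at a class level that NK and innate lymphoid-like cells also reached in the deligated libraries, and 12 of the 28 UMIs of deligated replicate 1 lay in 42 arterial-like cells. Mural markers in endothelial-like cells moved the same way (71.9 and 69.5 CPM against 45.4 and 19.7 CPM), and their part in the result was not tested.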

How the results depend on the processing

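The results were recomputed with 1 choice changed at a time, except where the replicate block and the removed trend were combined. The cause of each shift below was not tested. In endothelial-like cells the 4685 gene calls became 2644 and the 5 member calls became 2 with cells thinned to 1000 UMIs. In mural-like cells the 564 gene calls became 971 without the filter on low counts, 223 with the intron-length trend removed, 359 in DESeq2, 328 with the replicate block and the trend removed, 160 thinned, 889 with doublets kept and 364 under the stricter cell filter; the 1 member call became 0 with the trend removed or thinned. In fibroblast-like cells the 2920 gene calls became 1891 with the trend removed, 1836 in DESeq2 and 982 thinned, the 1 member call became 0 thinned, 3 with doublets kept and 2 under the stricter filter, and the 10 pathway calls became 6 in DESeq2 and 5 thinned. The 1 member whose group effect differed between classes became 2 with DESeq2 size factors, 5 without the filter, 3 with the trend removed and 2 under the stricter filter, each count being of member and class pairs.

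Leaving out 1 library, where the lone sample is assumed to vary like the other group, gave 2211 to 7769 genes, 0 to 8 members and 6 to 33 pathway genes in endothelial-like cells, 360 to 526 genes and 0 to 1 member in mural-like cells, and 994 to 4181 genes, 0 to 3 members and 3 to 16 pathway genes in fibroblast-like cells. Member calls in subtypes ranged from 1 to 10 (7 with all libraries), between classes from 0 to 3 and between arterial-like and capillary-like cells from 0 to 2. Without deligated replicate 2, Dll4 in endothelial-like cells turned to -0.18 (0.21 without deligated replicate 1, both called), and without deligated replicate 1, Hey1 turned to -0.32 (0.33 without deligated replicate 2, both called). The 5 members highest in arterial-like cells stayed 5 without each library.

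The labels give replicate numbers but do not tie them to a shared animal or day, and same-numbered libraries did not deviate together (correlations of -0.094, -0.066 and -0.031 in endothelial-like, mural-like and fibroblast-like cells). Leaving out the capillary-like sub-clusters led by Esm1 turned the 0 members that differed between arterial-like and capillary-like cells into 1. A replicate block gave 4307 gene calls and 2 member calls in endothelial-like cells (Notch3 and Jag2). Notch1, Jag1 and Hes1 lost their calls there (edgeR adjusted p = 0.082, 0.07 and 0.062). With the block and the trend removed, the count of members was also 2. The block gave 3 member calls between classes and 2 between arterial-like and capillary-like cells (Notch1 and Hes1). Over the settings that kept all libraries, the results for single members had the same call 612 times, gained it 17 times and lost it 16 times. Members without a call in either fit count among the 612, so that number does not measure how often a call was kept. Directions also turned in places: with the trend removed, Notch2 went from -0.30 to 0.43 in fibroblast-like and from -0.49 to 0.07 in endothelial-like cells, where Dll4 and Hey1, both at 0.02, went to -0.13 and -0.19. Depth limits rare members most: in the homeostatic pericyte-like sums a count of 0 allows up to 15.0 and 63.3 CPM.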
